A study of Mus musculus with 19 samples.

Results

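The fetal cortices of all dams that received thyroid hormone were compared with those of all dams that received vehicle, with the drinking water as a covariate, to find transcripts whose level followed the injection in both kinds of water. All 19 arrays of the series entered the comparison, 9 in the hormone arm and 10 in the vehicle arm, and membership was set by the treatment labels and by no measured value. Every fetus was wild type, of the C57BL/6 strain, labelled female, and taken on gestational day 16, 12 h after a single subcutaneous injection of the dam. RNA came from the cortex of individual fetuses, and each array holds 1 fetus. The control group (5 arrays) had water with 2% sucrose and an injection of saline. Dams of the hypo group (5 arrays) were injected with saline and drank the same sucrose water plus 1% perchlorate and 0.025% methimazole from gestational day 13, which are goitrogens, drugs that block hormone synthesis in the thyroid. In the hypo+ group (5 arrays) the dams drank goitrogen water and the injection held thyroxine (T4) at 25 µg and triiodothyronine (T3) at 2.5 µg per 100 g body weight. In the hyper group (4 arrays) they drank sucrose water and the injection held T4 at 100 µg and T3 at 10 µg per 100 g. The series title and the source names give a different goitrogen, propylthiouracil, so which drug was given is uncertain, and the treatment text is followed here. Dose and water changed together between both hormone groups, so a difference between their responses cannot be assigned to either. The labels count 5 dams a group and do not say that each array came from another dam, so p-values cover the variation among these fetuses and may miss that among dams.

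Thyroid hormone enters brain cells through membrane transporters, and deiodinases convert T4 to the more active T3. T3 binds the receptors encoded by Thra and Thrb, which sit on DNA as dimers with retinoid X receptors and exchange co-repressors for co-activators when the hormone is bound. In the fetal cortex this system is known for its part in the proliferation, migration and layering of neurons, and at this age much of the hormone comes from the mother.

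The values are array signals on a linear scale, and 17967 genes were each represented by their brightest probe set, the group of short probes that reads a transcript. The median signal of an array was 73.1 to 106 in control, 73.7 to 103.6 in hypo, 84.3 to 103.3 in hypo+ and 82.7 to 104.7 in hyper, so the lowest medians were in vehicle arrays. The cortical layer markers were well detected, with a mean vehicle signal of 4147.8 for Bcl11b, a transcription factor of deep layer neurons, and 930.7 for Tbr1, which marks early born cortical neurons. The arrays hypo+ replicate 1 and hyper replicate 4 departed from the female label: Xist, the RNA that silences an X chromosome in females, read 68.8 and 97.2 there against 3145.1 to 8226.4 on the other arrays, and the Y-linked Ddx3y read 695.9 and 546.7 against 11.3 or less. Both lie in the hormone arm, so the main counts are also given without them. The ratio of 3′ to 5′ Gapdh probes, a sign of RNA integrity, was 0.856 to 0.967 in control, 0.858 to 0.932 in hypo, 0.864 to 1.066 in hypo+ and 0.882 to 0.965 in hyper. The same ratio for β-actin was 1.105 to 1.16 in control and 1.12 to 1.151 in hyper, which overlap. It was 1.118 to 1.133 in hypo and 1.136 to 1.167 in hypo+, without overlap. The part of RNA integrity in the calls was not tested.

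In the hormone arm 185 genes rose and 91 genes fell, which together are 1.54% of those tested (1.03% up and 0.506% down; limma, two-sided, Benjamini-Hochberg adjusted p under 0.05). At an unadjusted p under 0.05 there were 2745 genes (15.3%), of which 1526 were higher (8.49%) and 1219 lower (6.78%). Of all genes 51.4% were positive in the pooled fit, and the list counts below are to be read against these shares. The transcripts of RNA binding proteins Prrc2c and Taf15, of the histone demethylase Kdm6b and of the known hormone targets Klf9 and Sema3c stood among the largest rises. The responses were small: the median was 0.31 among genes that rose and −0.26 among genes that fell on the log2(signal + 32) scale, the largest rise was 0.98, and the largest fall was −0.53. A change above 0.5 was seen for 22 of the genes that rose and a change below −0.5 for 1 of the genes that fell. The share of rises among all calls was 67%, but it was 50.6% after quantile normalization (202 up, 197 down) and 28.1% after each array was centred on its median (48 up, 123 down), so the surplus of rises moved with the scaling of the arrays. Without the arrays hypo+ 1 and hyper 4 there were 162 calls, 117 up and 45 down, and 147 of them were among the 276.

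Prrc2c, which encodes a large RNA binding protein of stress granules, had the smallest p of all genes. Its signal was 1165.3, 1168.1, 1072.7, 1589.3 and 1350.5 in the control arrays and 777, 1091, 954.5, 1305.8 and 1084.5 in the hypo arrays. With hormone it was 2166.8, 2424.3, 1979.7, 2268.9 and 2165.3 in hypo+ and 2221.3, 2014.2, 1900 and 1951.4 in hyper. Every hormone array lay above every vehicle array, and the hormone mean of 2121.3 ± 172.1 (SD, n = 9) stood against 1155.9 ± 223.3 (SD, n = 10). The rise was 0.88 ± 0.09 (SE) on the log2 scale with an adjusted p of 0.000217, and the response was 1.07 under goitrogen (adjusted p = 0.000216) and 0.67 under sucrose water, where it did not pass alone (adjusted p = 0.0587).

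Taf15 encodes an RNA and DNA binding protein, and its transcript gave the largest rise. The control arrays read 233.6, 223.1, 129.1, 282.7 and 181.9 and the hypo arrays 193.7, 202.4, 220.5, 210.7 and 129.9. The hypo+ arrays read 379, 454.5, 460, 511.3 and 402.1 and the hyper arrays 516.2, 350.8, 419.4 and 320. Again no hormone array overlapped a vehicle array. The change was 0.98 ± 0.12 (SE; adjusted p = 0.000503), with 1.09 under goitrogen (adjusted p = 0.00386) and 0.86 under sucrose water (adjusted p = 0.103).

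Kdm6b removes the repressive methyl marks of lysine 27 on histone H3 and takes part in neuronal differentiation. Its signal lay between 1430.3 and 2375.5 in the vehicle arrays and between 2977.7 and 3691.8 in the hormone arrays. The hypo+ mean of 3272.7 and the hyper mean of 3310.1 differed by less than the SD within either group, and the responses were 0.80 under goitrogen (adjusted p = 0.00666) and 0.73 under sucrose water (adjusted p = 0.0752; pooled 0.77 ± 0.09 SE, adjusted p = 0.000503). Rflnb, a filamin binding protein of the cytoskeleton, lay between 113.3 and 189 with vehicle and between 207.9 and 293 with hormone (0.59 ± 0.07 SE, adjusted p = 0.000503).

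**Figure D1:**
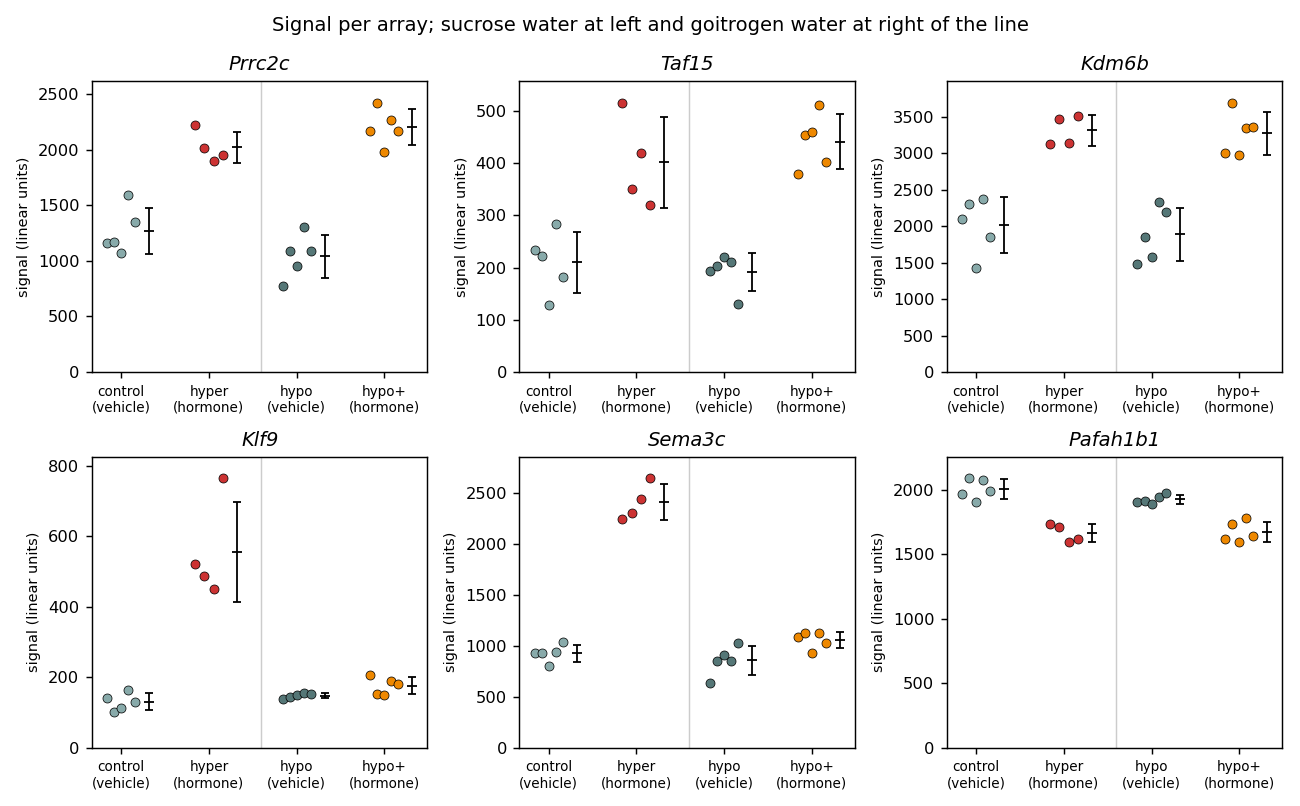
Signal of each array in linear units for Prrc2c, Taf15, Kdm6b, Klf9, Sema3c and Pafah1b1, by group, with the group mean and SD as bars; sucrose water is left and goitrogen water right of the line. Both hormone groups of Prrc2c, Taf15 and Kdm6b sit above all vehicle arrays, those of Pafah1b1 sit below them, and Klf9 and Sema3c are far higher in the hyper arrays alone.

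The promoters of 4 of these genes are shown because they differ in their response: the values of Prrc2c and Taf15 were higher with hormone in both waters, and those of Klf9 and Sema3c mainly at the high dose in sucrose water. Each line holds the 250 bases before the annotated RefSeq start in assembly GRCm38.p6, 5′ to 3′ on the gene's strand, with GC boxes (GGGCGG on either strand) in capitals.
Prrc2c, chr1:162740557-162740806, minus strand: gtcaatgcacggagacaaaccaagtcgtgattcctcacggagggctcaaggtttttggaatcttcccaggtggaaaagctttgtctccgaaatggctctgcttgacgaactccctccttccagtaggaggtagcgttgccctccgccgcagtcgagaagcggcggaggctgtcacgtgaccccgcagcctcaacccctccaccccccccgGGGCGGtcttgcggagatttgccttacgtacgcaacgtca
Taf15, chr11:83472858-83473107, plus strand: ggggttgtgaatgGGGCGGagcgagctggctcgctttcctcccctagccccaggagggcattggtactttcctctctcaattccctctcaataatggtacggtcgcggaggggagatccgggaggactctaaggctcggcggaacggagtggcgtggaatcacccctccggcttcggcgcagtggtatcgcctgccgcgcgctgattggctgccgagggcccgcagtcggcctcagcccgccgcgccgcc
Klf9, chr19:23140976-23141225, plus strand: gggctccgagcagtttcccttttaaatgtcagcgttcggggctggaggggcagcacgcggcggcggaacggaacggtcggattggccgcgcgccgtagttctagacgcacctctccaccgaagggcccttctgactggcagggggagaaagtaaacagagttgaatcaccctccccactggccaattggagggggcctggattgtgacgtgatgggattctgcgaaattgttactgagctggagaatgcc
Sema3c, chr5:17574566-17574815, plus strand: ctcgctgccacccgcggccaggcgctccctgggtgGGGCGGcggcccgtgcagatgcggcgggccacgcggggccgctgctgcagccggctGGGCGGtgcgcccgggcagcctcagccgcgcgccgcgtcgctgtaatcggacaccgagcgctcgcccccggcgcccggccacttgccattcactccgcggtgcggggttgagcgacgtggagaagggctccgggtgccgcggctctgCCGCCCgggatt
None of the 4 windows holds the receptor half-site AGGTCA on either strand, and GC boxes numbered 1 in Prrc2c, 1 in Taf15, 0 in Klf9 and 3 in Sema3c. Over the promoter table, 11.3% of 141 genes that rose, 13.0% of 77 genes that fell and 14.5% of 14132 measured genes held the half-site, searched on both strands. A direct repeat of the half-site with 4 bases of any kind (NNNN) between the copies, the classical element of the receptor dimer, was in no window of any of these sets, searched on both strands. GC boxes were in 64.5% of the genes that rose, 72.7% of those that fell and 54.0% of all. These are matches of letters in a short window and say nothing of binding, and receptor sites often lie farther away.

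In 16 genes all 9 hormone arrays were above all 10 vehicle arrays (0.0891% of genes), and in 6 genes all were below (0.0334%). These numbers were 26 and 11 without the arrays hypo+ 1 and hyper 4, since 7 hormone arrays overlap less easily than 9. Besides Prrc2c, Taf15, Kdm6b and Rflnb the 16 hold Snrpd3, also named by the rule, and 11 genes described here because their arms did not overlap, a choice made after their values were seen. Snrpd3, a core protein of the spliceosomal particles, read 2372 to 3333.4 with vehicle and 3483.4 to 4238.4 with hormone (0.46 ± 0.06 SE, adjusted p = 0.000503). Lsm11, a part of the particle that processes histone transcripts, read 210.8 to 319.1 and 325.7 to 467.6 (0.51 ± 0.08 SE, adjusted p = 0.0035). Srpk1, a kinase of splicing factors, rose by 0.39 and Upf3b, a factor of nonsense-mediated decay, by 0.38.

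Pwwp2a, a reader of a histone variant, rose by 0.51 and Mtf2, a Polycomb accessory protein, by 0.31. Psmd11, a subunit of the proteasome lid, rose by 0.40, Becn1, a core autophagy factor, by 0.30, and Dvl1, a transducer of Wnt signals, by 0.30. Rer1, a sorting receptor of the early secretory pathway, rose by 0.21, Acat2, a thiolase, by 0.21, and Abcf1, a translation factor, by 0.17, with little spread between arrays. For Abcf1 the highest vehicle array was 1143.3 and the lowest hormone array 1156.4, so the groups only just failed to overlap. These smaller rises moved with the processing: after median centring Upf3b, Mtf2, Psmd11, Becn1, Dvl1, Rer1, Acat2 and Abcf1 missed the threshold, and with the mean of all probe sets Psmd11 was 0.04, Becn1 0.03, Mtf2 0.04 and Rer1 0.02.

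Among the 6 genes on the low side, Pafah1b1, which encodes the dynein regulator Lis1 needed for neuronal migration, read 1887.9 to 2087.7 with vehicle and 1590.6 to 1779.5 with hormone. Its fall was −0.23 ± 0.03 (SE; adjusted p = 0.0035), with −0.20 under goitrogen and −0.26 under sucrose water. The gene has 5 probe sets, and their calls went both ways, 3 down and 2 up, over a range of −0.37 to 0.67, so the direction holds for the brightest probe set and not for the gene as a whole. Klhl42, an adaptor of a ubiquitin ligase, read 258.1 to 332.2 and 218.3 to 255.4 (−0.30 ± 0.05 SE, adjusted p = 0.00424). Lin7c, a scaffold protein of cell junctions and synapses, fell by 0.34, Bclaf1, an RNA associated nuclear protein, by 0.23, and Rnf24, a RING finger protein, by 0.21. Ccdc105, whose signal of 17.7 to 28.9 with vehicle was close to the lowest values of the arrays, did not pass the test (−0.12, adjusted p = 0.117).

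**Figure D2:**
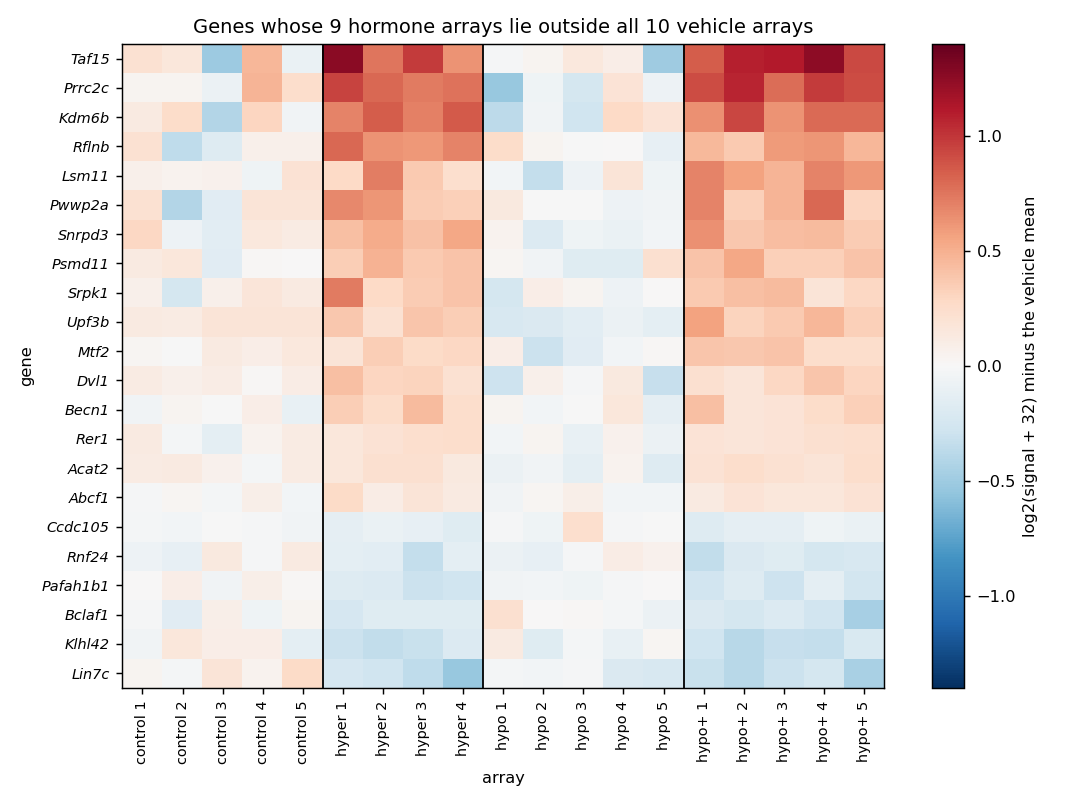
Heat map of log2(signal + 32) minus the vehicle mean for the 22 genes whose hormone arrays do not overlap the vehicle arrays (rows) in all 19 arrays (columns, by group). The columns of hyper and hypo+ are red for the first 16 rows and blue for the last 6, and the size of the change drops from 0.98 in Taf15 to 0.17 in Abcf1.

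Other large rises overlapped in part with the vehicle arrays. Atxn2, a partner of poly(A) binding protein in RNA granules, rose by 0.63 ± 0.11 (SE; adjusted p = 0.00573), and 4 of 9 hormone arrays were above all vehicle arrays. Gtf3c2, a subunit of a general factor of RNA polymerase III, rose by 0.63 ± 0.10 (adjusted p = 0.00476), and Nbeal1, a protein of the BEACH domain family, by 0.66 ± 0.09 (adjusted p = 0.00172). Hmga2, a chromatin protein of fetal neural stem cells, rose by 0.62 (pooled adjusted p = 0.0127). Its response was 0.62 in each water, where it passed in neither alone (adjusted p = 0.0699 under goitrogen and 0.334 under sucrose water). Cap1, a regulator of actin turnover, rose by 0.73 (adjusted p = 0.0375), and its values spread widely, from 70.9 to 294.1 with vehicle and from 188.1 to 303.1 with hormone.

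Malat1, a long noncoding RNA of nuclear speckles, was 691.8 to 1504.9 in hypo and 2069.6 to 2793.1 in hypo+, without overlap. In control it was 914.2 to 1720.3 and in hyper 1483.6 to 1777.8, which overlap. The pooled rise of 0.75 ± 0.16 (SE; adjusted p = 0.0185) combined 1.17 under goitrogen with 0.28 under sucrose water, weighted by the number of arrays, but the difference of the responses did not pass the test (0.88, adjusted p = 0.361). Its adjusted p was 0.0542 without the arrays hypo+ 1 and hyper 4. Of 13 measured nuclear noncoding RNAs Malat1 was the only gene past the threshold, and the median of the list was 0.15, against 0.00 for all genes.

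Genes that fell were led by Cdkn1b, the cell cycle inhibitor p27, at −0.53 ± 0.12 (SE; adjusted p = 0.0378), with 6 of 9 hormone arrays below all vehicle arrays. Aldh2, a mitochondrial aldehyde dehydrogenase, fell with the smallest p among them (adjusted p = 0.00116). It read 600.4, 588.4, 629.2, 551.3 and 525.2 in control against 433, 415.3, 438.1 and 379.6 in hyper. In hypo it read 513.8, 608.9, 657.3, 561.9 and 671.2 against 479, 426.8, 428.5, 453.9 and 515.1 in hypo+. Hyper and control were apart, hypo+ and hypo just overlapped, and over both waters only 1 hormone array reached the range of the vehicle arrays. The fall was −0.40 ± 0.05 (SE), and it came to −0.36 under goitrogen and −0.45 under sucrose water.

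The other large falls were of mixed function. Cryab, a small heat shock protein, fell by 0.46 (adjusted p = 0.0147), Hipk3, a kinase, by 0.48 (adjusted p = 0.0315), and C1galt1, an enzyme of protein glycosylation, by 0.45 (adjusted p = 0.0127). Grik2, a kainate receptor subunit, fell by 0.40, and Lrfn5, a synaptic adhesion protein, by 0.42. For Grik2 the other probe sets gave 0.35, −0.03 and 0.01, and the mean of all its probe sets was −0.02. Its adjusted p was 0.084 without the arrays hypo+ 1 and hyper 4, so the fall holds for the brightest probe set only. Cacna2d1, a calcium channel subunit, fell by 0.32 and was the only call among 30 ion channel genes, of which 23 were positive (7 higher and 2 lower at an unadjusted p under 0.05, median 0.12). Syp, the synaptic vesicle protein synaptophysin, fell by 0.36 (adjusted p = 0.0315), the only call among 34 genes of synapses and receptors, of which 19 were positive (2 higher and 3 lower at an unadjusted p under 0.05). Without the arrays hypo+ 1 and hyper 4, Cacna2d1 (adjusted p = 0.0564) and Syp (adjusted p = 0.0708) missed the threshold. The only call among the ion channel genes was then a rise, of Scn8a. The growth signalling kinase Rps6ka3 fell by 0.40, the lipid flippase Atp8a1 by 0.40, Rabgap1l, a regulator of Rab proteins, by 0.40, and Mcc by 0.39. Several falls were in transcripts that the authors' call put as absent, at background, where the added 32 also understates a change. Hsd17b13 was 34.7 to 73.7 with vehicle and 20 to 44.5 with hormone, Cdcp3 was 32.1 to 55.5 and 18.3 to 34.9, and the uncharacterised transcript 4930518P08Rik was 32.8 to 53.8 and 20.2 to 38.6.

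The known hormone response genes were read as lists, put together with earlier results of these samples in view, so that their counts are no independent evidence. Of 36 measured genes on a list of transcripts that hormone induces in brain, 3 rose and 1 fell, against 1.03% and 0.506% of all genes, 22 had a positive sign, and the median was 0.02. At an unadjusted p under 0.05, 9 were higher and 2 lower. Without the arrays hypo+ 1 and hyper 4, 2 rose (Klf9 and Sema3c) and 0 fell. Of 17 measured genes that hormone represses in brain, 0 passed in either direction, although 2 were higher at an unadjusted p under 0.05. Of 21 receptors and coregulators and of 12 transporters and deiodinases 0 passed (2 and 1 at an unadjusted p under 0.05), and Crym, a hormone binding protein of the cytosol, was −0.47 (adjusted p = 0.284), Dio2, the activating deiodinase, −0.22 (adjusted p = 0.368), and Thrb −0.04. Hr, a co-repressor known as a strong target in postnatal brain, was 0.02 (adjusted p = 0.942), and its vehicle signal of 47.5 to 88.4 was low. Camk4, a calcium dependent kinase and known target, was 0.22 (adjusted p = 0.366), and Shh, a patterning signal, was 0.19 (adjusted p = 0.586). Some of these pooled values joined unlike responses. Under goitrogen and under sucrose water Camk4 was −0.06 and 0.54, Hr −0.19 and 0.27, Crym −0.89 and 0.01, and Dio2 −0.41 and 0.00. None of them passed in either water, nor did the differences of their responses. The Camk4 signal was 383.7 to 473.4 in hyper and 222.2 to 334 with vehicle.

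Klf9, a zinc finger transcription factor and a direct receptor target, passed the pooled test on the strength of the high dose group. It read 521.4, 487.5, 449.4 and 765.2 in hyper and 142, 102.8, 113, 163.7 and 128.9 in control. In hypo+ it read 205.2, 152.1, 149.5, 188.7 and 181.5, and in hypo 137.7, 142.8, 150.8, 155.5 and 153.2, where both ranges overlap. The pooled rise of 0.97 ± 0.21 (SE; adjusted p = 0.0202) combined 1.84 under sucrose water (adjusted p = 4.1e-07) with 0.20 under goitrogen (adjusted p = 0.475), with more weight on the latter, which has more arrays. The responses differed by −1.65 (goitrogen minus sucrose, adjusted p = 0.000441).

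Sema3c, a secreted semaphorin that guides axons and migrating neurons, followed the same course. The hyper arrays read 2247.3, 2305.2, 2437.6 and 2644.7 against 804.9 to 1035.9 in control, and the hypo+ arrays read 934.6 to 1122.9 against 639.9 to 1031.5 in hypo. The pooled rise was 0.80 ± 0.14 (SE; adjusted p = 0.00579), with 1.35 under sucrose water and 0.31 under goitrogen, and the difference of −1.04 passed its test (adjusted p = 0.00706). With hypo+ 1 and hyper 4 left out that difference was −1.005 with an adjusted p of 0.0738, while that of Klf9 was −1.54 (adjusted p = 0.000139). These were the 2 genes with a difference between the responses (0.0111% of genes), while 1399 genes had an unadjusted p under 0.05 (7.79%). Of 12 measured class 3 semaphorins and their receptors Sema3c alone passed, and of 35 other axon guidance genes Sema5a rose (0.34, adjusted p = 0.0469).

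Sorl1, a sorting receptor of the endosome, rose by 0.46 (adjusted p = 0.0401), with 1418.3 to 1770.1 in hyper, 744.4 to 1076 in control, 863.7 to 1071 in hypo+ and 791.2 to 1043.3 in hypo. Its responses were 0.86 and 0.12, and the difference did not pass (−0.74, adjusted p = 0.179). Rgs6, a regulator of G protein signals, was 0.39 (adjusted p = 0.148), and the clock output factor Dbp was 0.49 (adjusted p = 0.0746). Both changed in hyper against control, Rgs6 by 0.88 and Dbp by 0.93, while under goitrogen they were −0.05 and 0.11. The difference of the responses did not pass for Rgs6 (adjusted p = 0.0713) or Dbp (adjusted p = 0.281). A pooled effect near the threshold can thus combine a large and a small value. Of 17 Rgs family genes Rgs3 rose (0.32, adjusted p = 0.0125), and of 17 clock genes 0 passed, although 5 were higher and 2 lower at an unadjusted p under 0.05.

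**Figure D3:**
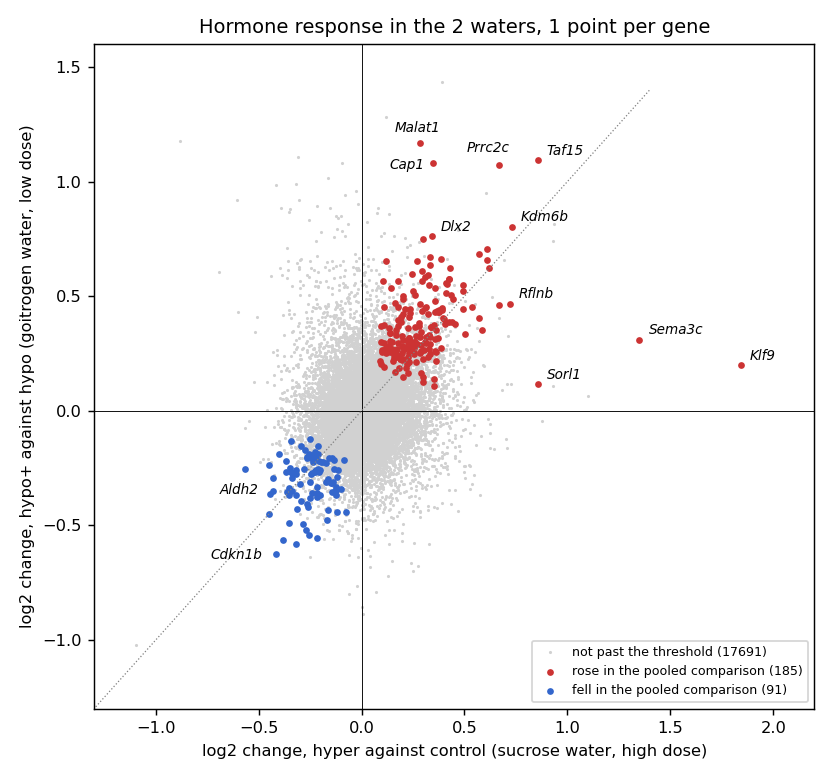
Log2 response to the high dose in sucrose water (horizontal) and to the low dose in goitrogen water (vertical), 1 point per gene, with genes that rose in the pooled comparison in red, those that fell in blue and the dotted line marking equal responses. Prrc2c, Taf15, Kdm6b and Rflnb are near the diagonal, Malat1 and Cap1 lie toward the goitrogen axis, and Klf9, Sema3c and Sorl1 lie toward the sucrose axis.

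The responses in both waters come from separate arrays, with no shared control. Across all 17967 genes their correlation was weak (Pearson r = 0.18, Spearman rho = 0.20, a description across genes that are not independent), and 57.1% of genes had the same sign. In hypo+ against hypo 283 genes passed (1.58%), 186 up (1.04%) and 97 down (0.54%). Of the 186 rises 75.8% were also positive in hyper against control, where 54.2% of all genes were positive, with a median of 0.12. Of the 97 falls 74.2% were negative there, with a median of −0.06. In hyper against control 8 genes passed (0.0445%), 7 up (0.039%) and 1 down (0.00557%), and 6 of the 7 rises and the fall had the same sign under goitrogen. The responses read in the other water come from arrays that gave no response to the calls. The calls of both waters share the variance estimate of 1 fit to all 19 arrays, so they are not fully separate. Leaving out hypo+ 1 and hyper 4, the counts were 102 up and 67 down under goitrogen and 5 up and 0 down under sucrose water.

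All 276 pooled calls had the same sign in both waters, a property that the additive fit favours. Of these genes 134 also passed in hypo+ against hypo, 6 in hyper against control, and 137 in neither water alone. The response was larger under goitrogen for 198 of them. The median response of genes that rose was 0.33 under goitrogen and 0.27 under sucrose water, and of genes that fell −0.29 and −0.24. A difference between the responses at an unadjusted p under 0.05 was present for 36 of them. In the other direction, Epha3, an ephrin receptor, fell by 0.41 under goitrogen (adjusted p = 0.00386) and was 0.09 under sucrose water, which left a pooled value of −0.17 (adjusted p = 0.229). Ubald2 behaved alike, with −0.38 and 0.10, and Cyp4x1, a cytochrome P450, with 0.65 and −0.17. The difference of the responses did not pass for Epha3 (adjusted p = 0.0696), Ubald2 (adjusted p = 0.085) or Cyp4x1 (adjusted p = 0.126).

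Proteins of RNA granules, chromatin and splicing were read as lists. Of 25 measured RNA granule genes 3 rose (Prrc2c, Taf15 and Atxn2) and 0 fell, where 1.03% and 0.506% of all genes did (5 higher and 2 lower at an unadjusted p under 0.05), 17 had a positive sign, and the median of 0.01 was close to that of all genes (0.00). Of 34 chromatin modifiers 3 rose: Kdm6b, the methyltransferase Kmt2d (0.42, adjusted p = 0.00541) and the demethylase Kdm5b (0.36, adjusted p = 0.0175). Kmt2d passed in 1 of 2 probe sets and Kdm5b in 1 of 4. With the mean of their probe sets (0.20 for Kmt2d and 0.11 for Kdm5b) both missed the threshold, as did Kdm5b after median centring. Setd2, a methyltransferase of transcribed chromatin, fell by 0.18 (adjusted p = 0.0315), and the median of the list was 0.07 (7 higher and 3 lower at an unadjusted p under 0.05). Of 29 splicing factors Srrm2, a large speckle protein, rose (0.54, adjusted p = 0.0134), 20 were positive, and the median was 0.11 (5 higher and 1 lower at an unadjusted p under 0.05). Without the arrays hypo+ 1 and hyper 4 the same genes of these lists rose, and Setd2 did not pass. Each list was put together with earlier results of these samples in view, so that its counts are no independent evidence.

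Energy metabolism and translation moved little. Of 29 respiratory chain genes 2 fell, Uqcrc2, of complex III, by 0.21 (adjusted p = 0.0212) and Sdhb, of complex II, by 0.24 (adjusted p = 0.0454), where 0.506% of all genes fell. At an unadjusted p under 0.05, 2 of the 29 were higher and 4 lower. Of 36 ribosomal protein genes 0 passed, 7 were positive, 5 were lower at an unadjusted p under 0.05, and the median was −0.04. The glycolytic enzyme Aldoa rose by 0.35 (adjusted p = 0.00722) among 25 genes of hypoxia and glycolysis. Klf15, a zinc finger factor, fell by 0.27 with an adjusted p of 0.0499. Its response was −0.44 under goitrogen (adjusted p = 0.00718) and −0.07 under sucrose water (adjusted p = 0.855). The difference of these responses did not pass (adjusted p = 0.395). Mme, a membrane peptidase that is on the list of induced genes and was called absent by the authors, fell by 0.30 (adjusted p = 0.024).

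Markers of neighbouring tissues were set beside these results, since fewer cells of a type and less RNA per cell cannot be told apart in whole tissue. Of 22 markers of GABAergic interneurons Dlx2, a homeobox factor of the ganglionic eminences, rose by 0.56 ± 0.11 (SE; adjusted p = 0.0163). Its signal was 600.2 to 1206.1 with vehicle and 1182.1 to 1928.6 with hormone, and 8 of 9 hormone arrays were above all vehicle arrays. The Dlx2 response was 0.76 under goitrogen (adjusted p = 0.0158) and 0.34 under sucrose water (adjusted p = 0.595). The difference of these responses did not pass (adjusted p = 0.667). In the interneuron list 20 of 22 genes were positive in the pooled fit (2 higher and 0 lower at an unadjusted p under 0.05). The median was 0.24 under goitrogen (18 positive) and −0.05 under sucrose water (10 positive). The summed signal of the list was 11513.8 to 19296.6 with vehicle and 13299.2 to 20013.8 with hormone. Foxp1, a factor of striatal and cortical neurons, rose by 0.26 (adjusted p = 0.046) among 18 striatal markers, of which 13 were positive and 8 were higher and 0 lower at an unadjusted p under 0.05, against 8.49% and 6.78% of all genes, and their sum was 8662.9 to 11673.4 and 10350.8 to 12572. The part of dissection in these values was not tested.

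Markers of hypothalamus and thalamus had 0 of 21 past the threshold (0 higher and 2 lower at an unadjusted p under 0.05), a pooled median of 0.16, and opposite medians of 0.40 under goitrogen and −0.11 under sucrose water. Their summed signal was 3119.1 to 7499.7 with vehicle and 3399.3 to 8257.6 with hormone, and Tcf7l2, a thalamic factor, was 0.64 with a standard error of 0.61. Intermediate progenitor markers had a median of −0.31 under goitrogen and 0.17 under sucrose water, and choroid plexus markers −0.10 and 0.34, with 0 of 15 past the threshold in each (0 and 2 genes at an unadjusted p under 0.05). Ttr, a hormone carrier that choroid plexus cells secrete, was between 5282.4 and 18536.6 with vehicle and between 9750.7 and 16482.3 with hormone (0.13, adjusted p = 0.771). Deep layer markers had 0 of 16 past the threshold (1 higher and 4 lower at an unadjusted p under 0.05) and a median of 0.00. Of 14 upper layer markers Cux2 rose (0.37, adjusted p = 0.0147), and 2 were higher and 1 lower at an unadjusted p under 0.05. The median of that list was −0.11 under goitrogen (5 positive) and 0.16 under sucrose water (10 positive). Cux2 passed in 1 of 3 probe sets, and with their mean (0.14) or after median centring it missed the threshold. The astrocyte marker Gfap fell by 0.30 (adjusted p = 0.0286). It passed in 1 of 3 probe sets, was −0.12 with their mean, and missed the threshold under 9 of 35 alternatives. Of 15 astrocyte markers 4 were positive (0 higher and 1 lower at an unadjusted p under 0.05). The part of tissue make-up in the pooled calls was not tested.

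**Figure D4:**
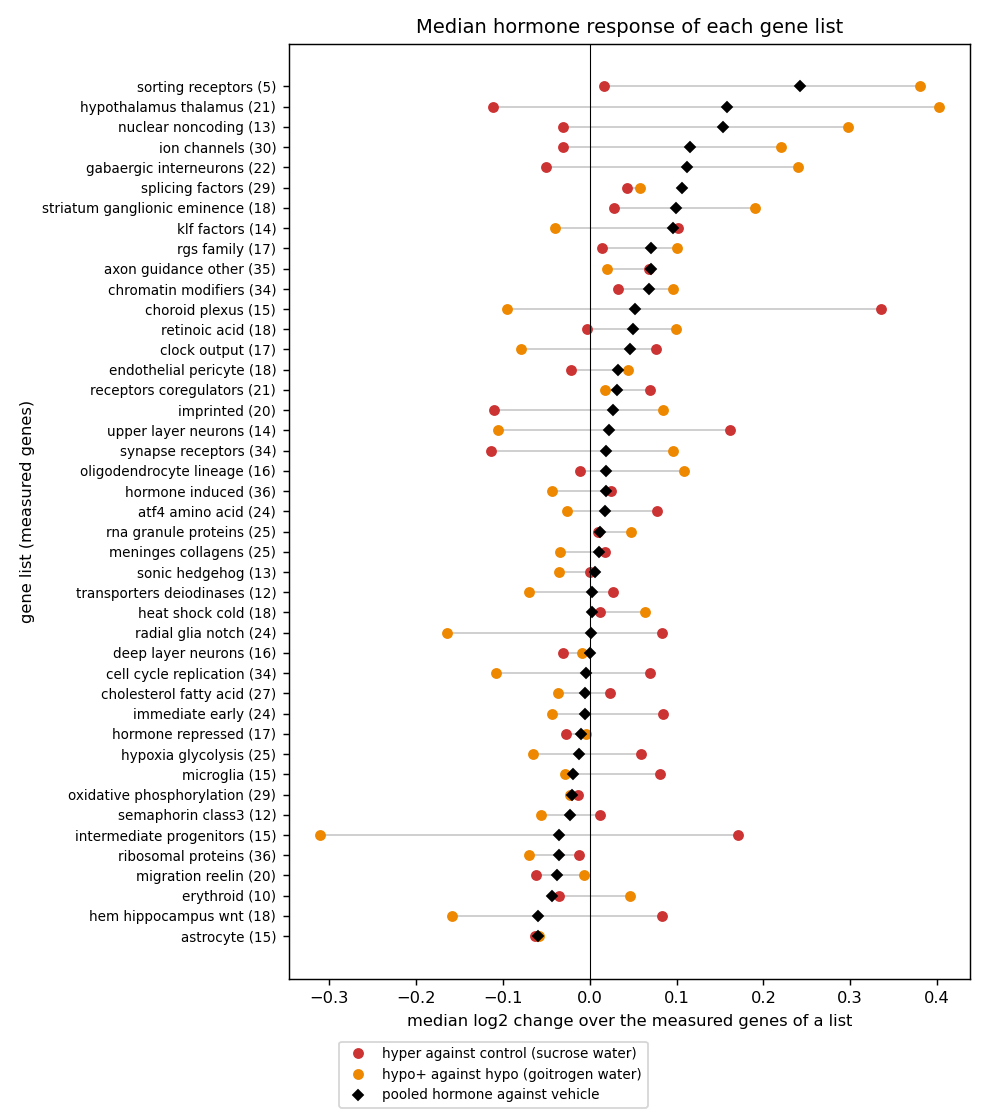
Median log2 change over the measured genes of each gene list (rows, with the number of genes) in the pooled comparison (diamonds), under goitrogen water (orange) and under sucrose water (red). The pooled medians run from −0.06 for astrocyte markers to 0.24 for sorting receptors, and hypothalamic, interneuron and intermediate progenitor lists have medians of opposite sign in both waters.

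Probe sets of the same gene often disagreed, and this bears on the largest changes. The 24 genes with the largest rises and falls have 82 probe sets, and of the 58 that are not the brightest 11 passed in the same direction and 0 in the opposite one. Klf9 passed in 3 of 7 probe sets (0.84, 0.97 and 1.30) and Malat1 in 4 of 7. For Prrc2c a probe set of mean signal 943.3 changed by 0.18 and did not pass, and for Kdm6b 1 of mean signal 1649 gave 0.10, so these rises were read by some probe sets and not by others. The second probe set of Taf15, of mean signal 46.7, gave −0.01. Among all genes that rose, 145 have other probe sets, 343 in number, of which 226 had the same sign, 39 passed in the same direction and 2 in the opposite one. For the genes that fell these numbers were 69, 163, 101, 25 and 5. When all probe sets of a gene were averaged, 292 genes passed, but only 113 of them were among the 276. Of 61 genes that passed and are named here 29 then missed the threshold, among them Aldh2, Hmga2, Snrpd3 and Sorl1. Prrc2c then rose by 0.28, Taf15 by 0.48 and Kdm6b by 0.38, each still past the threshold.

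**Figure D5:**
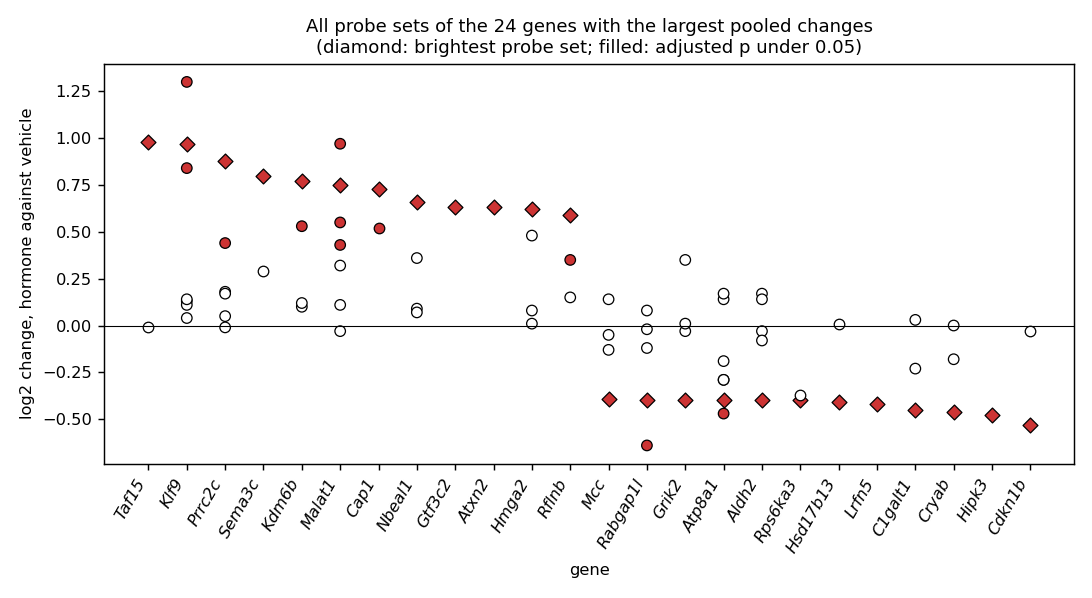
Log2 change of every probe set of the 12 largest rises and 12 largest falls, with diamonds for the brightest probe set of a gene and filled points where the adjusted p was under 0.05. Klf9, Malat1 and Rflnb have further probe sets that pass, and many genes have further probe sets near 0.

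With each probe set tested on its own, 2435 of 45037 passed (5.41%). Of the 34075 that have a single gene name 920 rose (2.7%) and 734 fell (2.15%). Among the 10962 that could not be given a single gene, 696 rose (6.35%) and 85 fell (0.775%), and which transcripts these read is not given in the files used here.

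The calls were not equally firm. Prrc2c, Taf15, Kdm6b, Rflnb, Atxn2 and Gtf3c2 passed under all 36 alternatives that were run. Atxn2 and Gtf3c2 have 1 probe set each, so averaging the probe sets of a gene could not change them. Foxp1 missed the threshold under 25 of them, Klf15 under 24, Atp8a1 and Sema5a under 22 each, Sorl1 and Sdhb under 21 each, Lrfn5 under 19, Mcc, Rabgap1l and Setd2 under 18 each, Cap1 under 16, and Cdkn1b and Syp under 14 each, and Hipk3 and Cacna2d1 under 12 each. Without the arrays hypo+ 1 and hyper 4, 20 of the 61 named genes that passed missed the threshold, among them Cdkn1b (adjusted p = 0.0625), Cap1 (adjusted p = 0.0751) and Sorl1 (adjusted p = 0.109). Klf9 (0.85, adjusted p = 0.0487) and Sema3c (0.76, adjusted p = 0.0186) still passed, and the rise was 0.90 for Prrc2c, 1.05 for Taf15 and 0.77 for Kdm6b. With the Y-linked signal as a covariate Klf9 missed the threshold (0.86, adjusted p = 0.0642) and Sema3c passed (0.77). Without the water covariate both missed it, Sema3c with an adjusted p of 0.053.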

How the data were processed

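RNA from 19 fetal cortices was measured on Affymetrix arrays. The deposited values are linear intensities per probe set, which the authors had summarised and normalized before deposit. The submitters' processing notes name RMA and MAS5 without saying which made them. The labels name a rat array, but probe sets and symbols are those of mouse. The deposited table of comparisons gave symbols, Entrez numbers and present calls. Of 45101 probe sets 64 controls were left out. Those with exactly 1 current gene in a GRCm38.p6 table (34075 probe sets) gave 17967 genes, each read by its probe set of highest mean; 32 with several old symbols of 1 gene were kept, Klf9 among them.

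Intensities were transformed to log2(value + 32), which understates changes of dim genes. limma 3.58.1 (R 4.3.3; lmFit, eBayes) was fitted to all 19 arrays with water and injection as terms (16 residual degrees of freedom), and p-values were adjusted by the Benjamini-Hochberg method across the 17967 genes. Responses within each water and their difference came from a fit of the 4 group means (15 residual degrees of freedom). All p-values are limma's and two-sided. The fit was tested on simulated data. The number of arrays limits the precision. Pairs of arrays correlated at 0.976 to 0.993 and none was a duplicate.

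The comparison and the gene lists were chosen with earlier results of these data known. Genes named were the 12 largest rises and falls past the threshold, the 5 of smallest p in each direction, list members past the threshold (up to 6 a list), the 6 of smallest p for the difference between waters, and preset hormone genes, some of which are not reported here; genes whose arms did not overlap were added after their values were seen. Alternatives changed the covariates, pseudocount, normalization, probe set rule, filter, prior, weights, threshold and arrays.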

Additional observations from a re-analysis of the deposited data

Results flagged for a closer look

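The response of Klf9 differed between the waters by −1.65 (goitrogen minus sucrose, log2 scale; limma, adjusted p = 0.000441), and that of Sema3c by −1.04 (adjusted p = 0.00706), in both cases larger in the high dose group. A signal outside the named genes was present in 696 probe sets without a single gene name that were higher with hormone, against 85 that were lower.

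Single arrays stood apart from the others of their group in 13 of 300 gene and group pairs checked by Dixon's criterion, where chance gives about 1 in 20. High values were those of Atxn2 in control replicate 4 (311.5 against 149.7 to 182.6), Snrpd3 in hypo+ replicate 1 (4238.4 against 3483.4 to 3694), Malat1 in hyper replicate 4 (1777.8 against 1483.6 to 1518.2), Setd2 in hypo+ replicate 5 (886.1 against 814.2 to 829.5), Ccdc105 in hypo replicate 3 (28.9 against 17.7 to 19.4) and the thalamic marker Tcf7l2 in control replicate 1 (999.7 against 44.7 to 185.6). Low values were those of Srpk1 in control replicate 2 (641.5 against 801.8 to 861.8), Cux2 in control replicate 3 (286.6 against 330.3 to 343.7) and Uqcrc2 in hypo replicate 5 (3697.2 against 4242.7 to 4460.8). The hyper group held low values for Ttr in replicate 1 (9750.7 against 15549.8 to 15703.7), Aldoa in replicate 3 (1823.3 against 2151 to 2207.9), Bclaf1 in replicate 1 (1901.9 against 1983.7 to 1993.8) and Rnf24 in replicate 3 (561 against 645.7 to 650.7).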

How the results depend on the processing

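The pooled count of 276 genes became 168 with a pseudocount of 1, 171 with median centring (107 of them among the 276), 486 with array weights, 2435 with each probe set tested, 15 (15 up, 0 down) when a change of 1.5-fold and an unadjusted p under 0.05 were asked for, 162 without the arrays hypo+ 1 and hyper 4, and 175 with their Y-linked signal as a covariate. Leaving out each array in turn gave 172 to 395 genes, and it moved the count by over 1.5 times for hypo+ replicate 1 (181), hypo+ replicate 4 (172), hyper replicate 1 (173) and hyper replicate 2 (174). The 2 genes with a difference between waters became 4 with a pseudocount of 100, 1 with median centring, with 1 deposited symbol or without the arrays hypo+ 1 and hyper 4, 6 with each probe set, 11 with array weights and 233 at the unadjusted threshold, and 2 to 25 when each array was left out (25 without hypo replicate 4, and 4 without control replicate 2 or control replicate 4). With 1 deposited symbol Klf9 had no probe set in the test, which took it out of that count. The cause of the other changes was not tested. With the mean of all probe sets Pafah1b1 (0.04), Sema5a (−0.01) and Camk4 (−0.06) reversed; Hr reversed with median centring (−0.06) and ranged from −0.02 to 0.08 without each array, and Ttr from −0.01 to 0.18. Of 61 named genes that passed 59 kept their sign throughout, all but Pafah1b1 and Sema5a. Labelled replicate numbers did not pair the arrays: correlations of deviations for same-numbered arrays were −0.363 to 0.433 (median −0.016), and 5 of 19 arrays were best matched by their own number. With the replicate block 196 genes passed, 171 of them among the 276, and 2 differed between waters.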

Other observations

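Chromosome 11 carries 8.01% of the measured genes, 10.9% of the pooled calls (30 genes) and 8 of the 22 genes whose hormone and vehicle arrays did not overlap: Taf15, Kdm6b, Rflnb, Lsm11, Pwwp2a, Psmd11, Becn1 and Pafah1b1. This was noticed after the values were seen and has no test. Its call rate of 2.08% was close to that of chromosomes 19 (2.45%), 12 (2.1%) and 17 (2.01%), and the median change of its genes was 0.00.

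Genes that rose were brighter than most. Their median mean signal was 674, against 190 for all genes and 586 for those that fell, and 184 of the 185 rises but 78 of the 91 falls were in probe sets called present by the authors.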
